A study of Danio rerio with 10 samples.

Results

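Transcripts of chromatin remodelers and histone modifiers were examined in red blood cell precursors of zebrafish embryos mutant for the splicing factor gene sf3b1. Members were chosen by symbol: every row of the deposited expression table whose symbol starts with smarc, hdac or setd, or with chd, kdm, kmt or kat followed by a digit, with chdh left out. The rule found 94 of 32233 rows, which carry 93 gene IDs. The cells were sorted for gata1, a gene that marks the erythroid lineage, at 24 hours post fertilization, and rRNA-depleted total RNA was sequenced. There were 5 sf3b1 mutant libraries (replicates 1, 3, 4, 5 and 6) and 5 sibling libraries titled as wild type (replicates 2 to 6). The sf3b1 allele and the number of embryos per library are not given in the sources used here, and nothing in the labels ties a library to its own clutch. The p-values therefore reflect the spread among these 10 libraries, part of which may be technical. The genotype tag of sibling 2 says mutant against its title; its title and the layout of 5 libraries per group place it with the siblings, where it was analysed.

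Chromatin remodelers use ATP to slide, eject or exchange nucleosomes, while histone modifying enzymes add or remove acetyl and methyl groups on histone tails. The SWI/SNF complex opens regulatory DNA, the CHD4 ATPase and the deacetylase HDAC1 work together in the repressive NuRD complex, and the demethylase LSD1 (kdm1a) works with the CoREST corepressor. In red cell precursors of mammals these complexes act with GATA1 and its partners to switch genes on and off, and chromatin is compacted as the cells mature.

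Values are FPKM, fragments scaled to transcript length and library size, so levels can be compared between genes. Fold changes are mutant over sibling on the log2(FPKM + 1) scale, which understates the change of low genes, and adjusted p is that of limma with Benjamini-Hochberg adjustment over the 13003 rows whose mean reached 1 FPKM, with a threshold of 0.05. The mutated gene itself, sf3b1 (chromosome 9, 32350877 to 32366371 in GRCz10), was at 19.0 ± 2.17 FPKM in mutants and 40.2 ± 3.24 FPKM in siblings (SD, n = 5 each). Sibling 2 had 41.0 FPKM of sf3b1, within the sibling range of 36.3 to 43.9 FPKM and above every mutant. All 14 erythroid genes listed as markers passed the filter on low values, and gata1a itself was at 53.0 ± 18.2 FPKM in mutants and 70.7 ± 23.3 FPKM in siblings (SD, n = 5 each; limma adjusted p = 0.432). Of these 14 genes 13 had a log2 fold change below 0, with a median of -0.98, and 3 passed the threshold: urod, rhag and epb41b, all lower in mutants. Over all tested rows 55.5% had a log2 fold change below 0 and 8.74% passed as lower. Markers of other cells were present too, with the sum of 22 myeloid rows at 273 to 537 FPKM in mutants and 616 to 949 FPKM in siblings, and that of 28 epidermal genes at 527 to 1470 FPKM in mutants and 445 to 1010 FPKM in siblings; of these epidermal genes spint1a was listed at 0 in every library. Mutant 1 and sibling 2 stood apart from the other libraries on the second principal component of all tested rows, at 50.9 and 45.5 against -35.4 to -2.68. Each also had the highest epidermal sum of its group, 1470 and 1010 FPKM, and the lowest erythroid sum, 2560 and 5170 FPKM. Their muscle sums (191 and 388 FPKM) and neural sums (156 and 145 FPKM) were the highest too. Their myeloid sums, 460 and 763 FPKM, lay within the range of the other libraries of their groups. FPKM sums per library ran from 293816 to 422870, and absolute depth is unknown. Depth relative to mutant 1, read from the steps of low values, was 0.57 to 1 in mutants and 0.85 to 1.27 in siblings.

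In both groups most chromatin genes were transcribed at moderate levels, and few passed the threshold for a difference between mutants and siblings. Of the 94 members 80 passed the filter on low values. Of these 80, 2 rose (smarcd1 and kmt2e) and 4 fell (chd4b, smarcad1a, setdb1a and chd1l). Leaving out 1 library at a time gave 1 to 3 higher and 3 to 8 lower members: 1 was higher without mutant 4, 5 or 6 or sibling 3, 4 or 5, and 8 were lower without sibling 3. In the analysis of all 10 libraries the calls are 7.5% of the tested members, while 14.3% of all tested rows passed the same test (5.59% higher and 8.74% lower), so the share of chromatin genes past the threshold was not above that of the transcriptome. Of all tested rows 727 were higher and 1137 lower, and this split moved with the scaling, to 945 higher and 980 lower with median of ratios and 987 and 1008 after quantile normalization; the members then split into 3 higher and 4 lower, and 4 and 4. At an unadjusted p under 0.05 there were 22 members (27.5%), against 29.0% of all tested rows. The median log2 fold change was -0.14 for the members and -0.06 for all tested rows. Below 0 lay 50 of the 80 members (62.5%), against 55.5% of all tested rows.

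Differences were small for most members. The 95% interval of the log2 fold change lay between -1 and 1, a range of 2-fold either way on the log2(FPKM + 1) scale, for 71 of 80 tested members (88.8%), against 69.6% of all tested rows. Replicates of the members also varied less: the median SD within groups was 0.236 on the log2 scale for the members and 0.339 for all tested rows. The members were more highly transcribed than most rows, with a median sibling mean of 9.81 FPKM against 4.77 FPKM over all tested rows. The 9 members whose interval reached beyond -1 or 1 were chd1l, smarcad1a, setdb1a, setd8b, setd4, smarca2, hdac6, hdac9b and kat7a. The first principal component of the 80 members alone (30.9% of their variance) placed the mutants at -2.21 to -0.488 and the siblings at 0.493 to 2.17, so the groups did not overlap on it. The first component of all tested rows (27.1% of their variance) separated the groups as well, with mutants at -34.2 to -30.4 and siblings at 23.8 to 40.5; both are descriptions with no test.

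**Figure D1:**
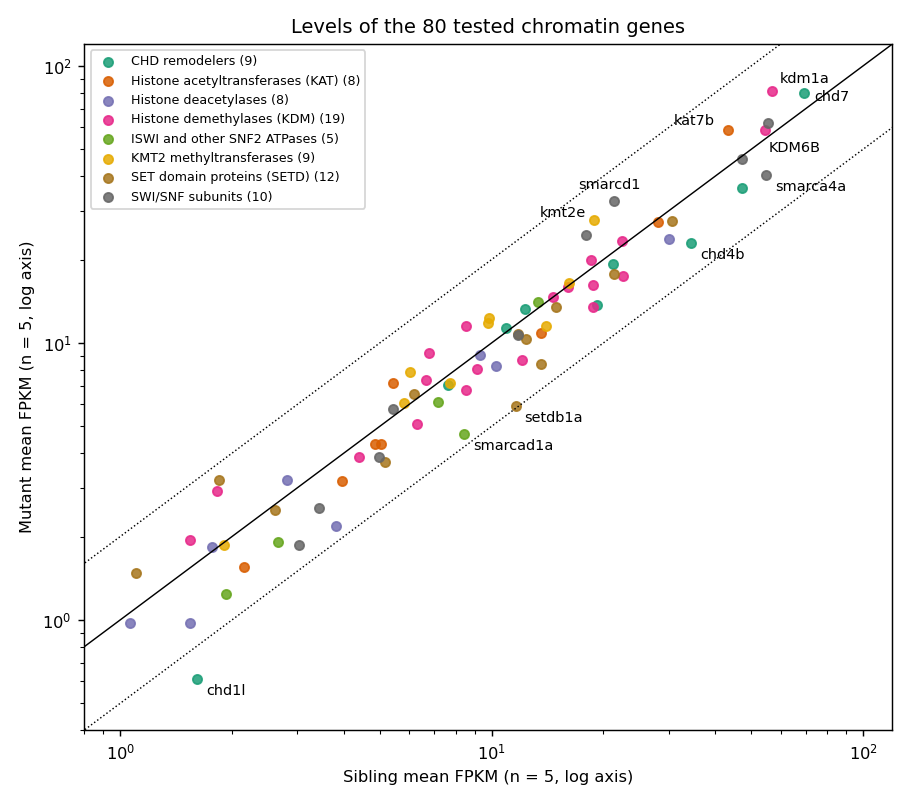
Mean FPKM of each of the 80 tested chromatin genes in mutants (vertical, n = 5) and siblings (horizontal, n = 5), both on log axes, coloured by family with the number of rows in brackets. The solid line marks equal means and the dotted lines a 2-fold difference of mean FPKM; most points lie close to the solid line, and chd1l lies farthest below it.

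**Figure D2:**
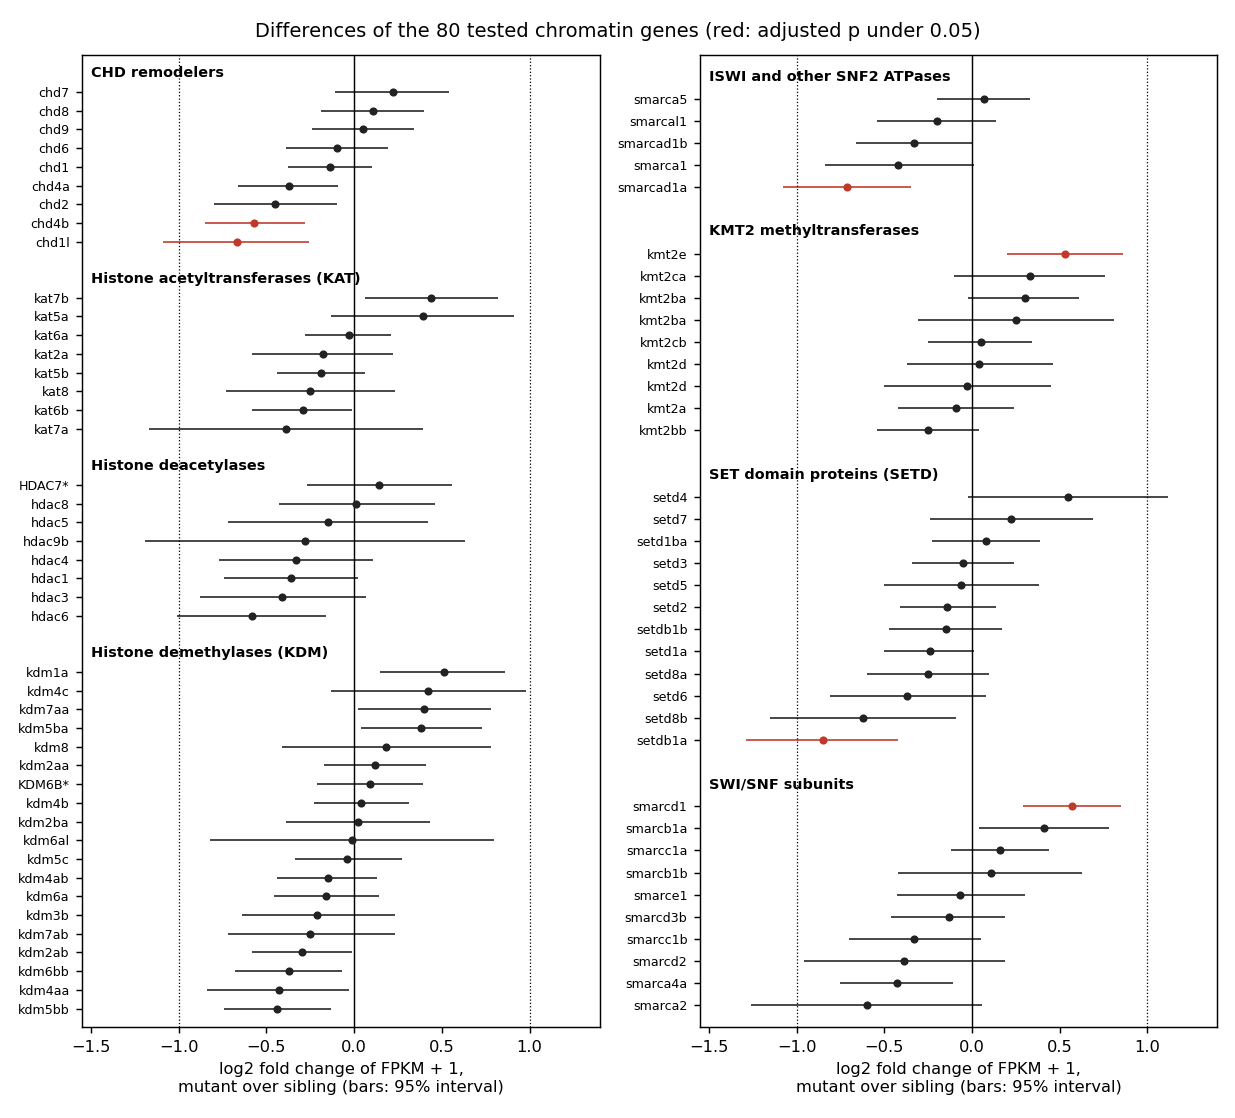
Log2 fold change of FPKM + 1, mutant over sibling, for each of the 80 tested members by family, with bars for the 95% interval and dotted lines at -1 and 1. The 6 genes past the threshold are in red, and an asterisk marks a symbol that the table gives as 1 of many copies.

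Of 10 tested SWI/SNF subunit genes 1 rose, smarcd1, and 0 fell, against 5.59% and 8.74% of all tested rows. The gene smarcd1 (ENSDARG00000019004, chromosome 22, 6979216 to 6995547), which encodes BAF60a, a subunit that links the complex to transcription factors, had 27.8, 29.6, 37.7, 33.0 and 33.8 FPKM in mutants, against 22.9, 19.8, 23.5, 21.5 and 19.5 FPKM in siblings. Every mutant library lay above every sibling library. The log2 fold change was 0.57 (SE 0.13, limma adjusted p = 0.0122), and smarcd1 was the only tested member of the 80 whose mutants all lay higher (1.25%, against 4.98% of all tested rows). Its call ended with sibling 2 counted as a mutant (adjusted p = 0.0748), a setting in which 5.85% of all tested rows passed in place of 14.3%.

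The ATPase gene smarca4a (ENSDARG00000077226, chromosome 3, 19096064 to 19132138), the counterpart of mammalian BRG1, had 46.6, 34.4, 43.7, 39.5 and 37.5 FPKM in mutants, against 49.9, 48.3, 62.1, 47.8 and 66.0 FPKM in siblings. All 5 mutants lay below all 5 siblings, but the log2 fold change of -0.43 (SE 0.15) missed the threshold (limma adjusted p = 0.0682). smarca4a passed in 4 of 22 alternatives, among them leaving out mutant 1, alone or together with sibling 2 (0.0491 and 0.0482), and array weights (0.0364). smarca2, the gene of the alternative ATPase BRM, was at 1.87 ± 1.41 FPKM in mutants and 3.02 ± 0.735 FPKM in siblings (SD, n = 5 each), so the smarca4a transcript was the more abundant of the ATPase transcripts in every library.

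The remaining subunits showed no difference past the threshold. The scaffold gene smarcc1a was at 62.0 ± 5.71 FPKM in mutants and 55.5 ± 6.39 FPKM in siblings (SD, n = 5 each; limma adjusted p = 0.466). smarce1, a subunit with an HMG box, was at 46.0 ± 11.1 FPKM in mutants and 47.3 ± 4.05 FPKM in siblings (limma adjusted p = 0.837). smarcb1a, which encodes a core subunit, was at 24.6 ± 5.83 FPKM in mutants and 18.0 ± 2.72 FPKM in siblings (limma adjusted p = 0.134), and its annotated span overlaps derl3. Its paralog smarcb1b was at 5.77 ± 1.55 FPKM in mutants and 5.42 ± 1.86 FPKM in siblings (limma adjusted p = 0.819). Of 12 SWI/SNF genes 10 were tested; smarcc2 and smarcd3a did not pass the filter. The partner genes of SWI/SNF that the symbol rule does not take in, such as arid1aa and arid2, had 16 tested members. Of these 0 rose and 1 fell by the limma test, against 5.59% and 8.74% of all tested rows. That gene was pbrm1l, related to the bromodomain subunit polybromo, at 17.4 ± 1.97 FPKM in mutants and 24.1 ± 1.34 FPKM in siblings (SD, n = 5 each). At an adjusted p of 0.0303 its call ended in 11 of 22 alternatives, among them leaving out mutant 4, 5 or 6 or sibling 3, 4, 5 or 6 (0.0526 to 0.0724).

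**Figure D3:**
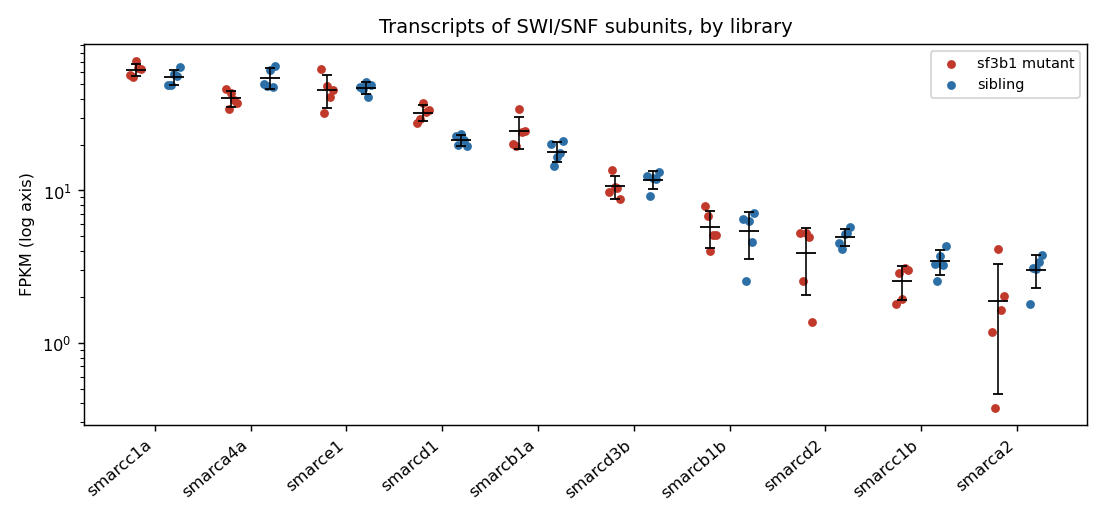
FPKM on a log axis of the 10 tested SWI/SNF subunit genes in each library, mutants left of siblings, with the mean and SD (n = 5 each). The smarcd1 points of mutants sit above those of siblings and the smarca4a points below, while the other 8 genes overlap between groups.

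Of 5 tested ISWI and related ATPase genes 0 rose and 1 fell, smarcad1a, against 5.59% and 8.74% of all tested rows. Its product is related to a yeast factor that keeps silent chromatin intact through DNA replication. smarcad1a (ENSDARG00000014041, chromosome 8, 29626736 to 29643183) had 3.61, 4.45, 5.12, 4.87 and 5.37 FPKM in mutants, against 5.86, 9.19, 7.91, 8.17 and 10.9 FPKM in siblings. The ranges did not overlap, with sibling 2 the nearest to the mutants. The log2 fold change was -0.71 (SE 0.17, limma adjusted p = 0.0149), and the call held under all 22 alternatives (adjusted p of 0.0056 to 0.0384). smarca5, the main ISWI ATPase, was at 14.0 ± 1.52 FPKM in mutants and 13.3 ± 0.878 FPKM in siblings (SD, n = 5 each), a log2 fold change of 0.07 with a 95% interval of -0.20 to 0.33. The other 3 members, smarcal1, smarcad1b and smarca1, had log2 fold changes of -0.20 to -0.42 and did not pass.

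Of 9 tested CHD remodelers 0 rose and 2 fell, chd4b and chd1l, against 5.59% and 8.74% of all tested rows. chd4b (ENSDARG00000025789, chromosome 16, 31807124 to 31835577), one of a pair of genes for the NuRD ATPase, had 24.3, 21.3, 20.2, 21.1 and 28.3 FPKM in mutants, against 37.0, 30.3, 35.0, 33.7 and 35.9 FPKM in siblings. All mutants lay below all siblings (log2 fold change -0.57, SE 0.13, limma adjusted p = 0.0147). The call ended with equal library sums outside globin, mitochondrial and rRNA genes (0.0673) and with sibling 2 counted as a mutant (0.181). Its paralog chd4a was at 36.1 ± 3.37 FPKM in mutants and 47.1 ± 5.57 FPKM in siblings (SD, n = 5 each), with a log2 fold change of -0.37 that missed the threshold (limma adjusted p = 0.0788). chd4a passed in 1 of 22 alternatives, without sibling 3 (0.0458).

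The other CHD gene that fell, chd1l (ENSDARG00000015471, chromosome 6, 36866233 to 36899693), encodes a remodeler recruited to sites of DNA damage. It had 0.584, 0.652, 0.800, 0.488 and 0.537 FPKM in mutants, against 0.878, 1.34, 1.76, 2.07 and 1.99 FPKM in siblings. These values are low, and the ranges did not overlap (log2 fold change -0.67, SE 0.19, limma adjusted p = 0.0344). The call ended when mutant 3, 5 or 6 or sibling 4, 5 or 6 was left out (adjusted p of 0.0609 to 0.0858) and after quantile normalization (0.0657). chd7, whose human counterpart is mutated in CHARGE syndrome, had the highest sibling mean of all 94 members: it was at 79.6 ± 7.16 FPKM in mutants and 69.2 ± 12.9 FPKM in siblings (SD, n = 5 each; limma adjusted p = 0.388). chd3 and chd5, the other NuRD-type CHD genes, stayed at or below 0.213 FPKM in every library. The other 5 tested CHD genes, chd1, chd2, chd6, chd8 and chd9, had log2 fold changes of -0.45 to 0.11, with chd2 the lowest (limma adjusted p = 0.0822).

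Of 8 tested histone deacetylase genes 0 passed the limma threshold, and 1 had an unadjusted p under 0.05. The shares of all tested rows were 14.3% and 29%. hdac1 (ENSDARG00000015427, chromosome 19, 30221386 to 30231335), the shared catalytic subunit of the NuRD, Sin3 and CoREST complexes, had 34.5, 21.1, 24.7, 17.5 and 20.7 FPKM in mutants, against 34.9, 27.7, 31.4, 28.3 and 27.7 FPKM in siblings. Mutant 1 lay among the siblings and the other 4 mutants below all of them. The log2 fold change was -0.36 (SE 0.17, limma adjusted p = 0.198). hdac1 passed in 1 of 22 alternatives, without mutant 1, at a log2 fold change of -0.50 (0.0355). hdac3, the deacetylase of NCoR complexes, was at 0.974 ± 0.612 FPKM in mutants and 1.54 ± 0.286 FPKM in siblings (SD, n = 5 each; limma adjusted p = 0.249). hdac8 was at 1.84 ± 0.730 FPKM in mutants and 1.77 ± 0.415 FPKM in siblings (limma adjusted p = 0.976), and the sign of its log2 fold change turned under some alternatives. Its span overlaps cited1. In siblings the hdac1 transcript, at 27.7 FPKM or more, exceeded those of hdac3 and hdac8, at 2.24 FPKM or less, in every library. That 1 gene was hdac6, a mainly cytoplasmic deacetylase of tubulin, at 2.19 ± 0.585 FPKM in mutants and 3.82 ± 1.08 FPKM in siblings (SD, n = 5 each; limma adjusted p = 0.0636), named after its values were seen. It passed the threshold when mutant 4 or sibling 3 was left out, and in no other alternative. Of the 12 deacetylase genes hdac10, hdac11, hdac12 and hdac7b did not pass the filter.

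Partner genes of the deacetylase complexes changed in both directions, 1 of 39 tested rows higher and 5 lower, against 5.59% and 8.74% of all tested rows. The gene that rose was sap18, whose product associates with Sin3 and is also part of a complex bound to spliced mRNA. sap18 was at 95.8 ± 12.1 FPKM in mutants and 48.5 ± 5.39 FPKM in siblings (SD, n = 5 each), a log2 fold change of 0.97 with a limma adjusted p of 8.73e-04. rcor2, a CoREST gene, fell to 7.75 ± 1.65 FPKM in mutants, against 16.3 ± 2.39 FPKM in siblings, by limma a log2 fold change of -0.99 (adjusted p = 0.0020). mta1, a NuRD subunit gene, fell to 2.73 ± 1.44 FPKM in mutants, against 8.30 ± 1.61 FPKM in siblings, by limma a log2 fold change of -1.41 (adjusted p = 0.0072). The calls of rcor2 and mta1 ended with sibling 2 counted as a mutant (0.118 and 0.0943).

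**Figure D4:**
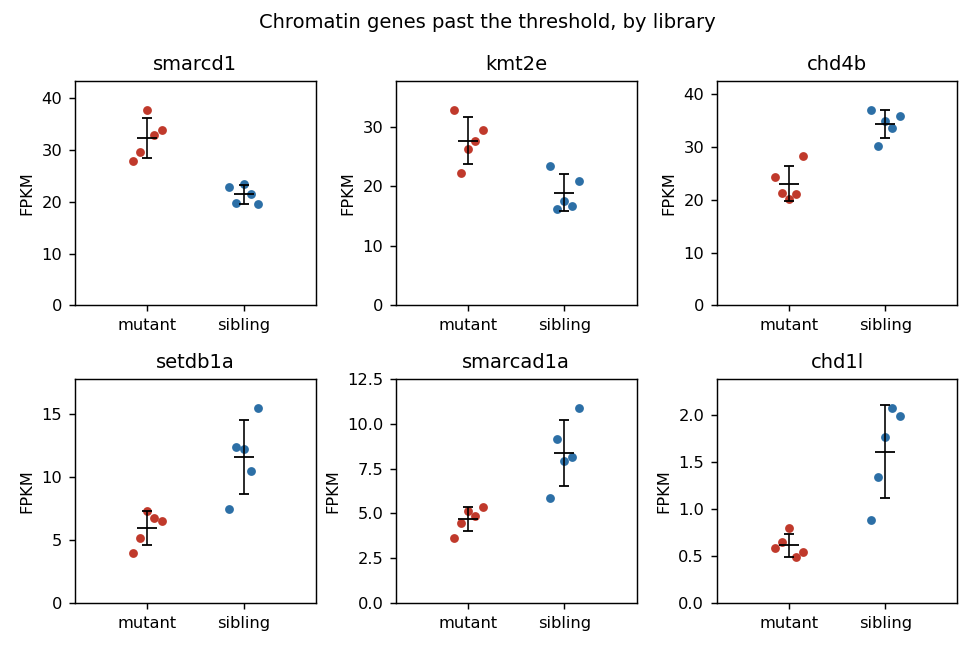
FPKM in each library of the 6 chromatin genes past the threshold, mutants left of siblings, with the mean and SD (n = 5 each) and a vertical axis from 0 in each panel. Groups overlap for kmt2e and for none of the other 5 genes.

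Of 8 tested histone acetyltransferase genes 0 passed the limma threshold, and 2 had an unadjusted p under 0.05, kat7b and kat6b. The shares of all tested rows were 14.3% and 29%. kat7b, one of a pair of genes for the acetyltransferase HBO1, was at 58.5 ± 9.01 FPKM in mutants and 43.2 ± 9.37 FPKM in siblings (SD, n = 5 each, limma adjusted p = 0.111). kat7b passed in 1 of 22 alternatives, after quantile normalization (0.0434). Its span overlaps an unnamed gene, and since it is not given whether counting used strand, reads of overlapping genes cannot be told apart. kat2a, which encodes the SAGA acetyltransferase Gcn5, was at 3.07 to 6.77 FPKM in mutants and 4.20 to 5.68 FPKM in siblings (limma adjusted p = 0.572), while kat2b stayed at or below 0.916 FPKM in every library. kat5b, one of a pair of genes for the acetyltransferase TIP60, showed groups that did not overlap, at 4.03 to 4.66 FPKM in mutants and 4.76 to 5.42 FPKM in siblings, yet with a log2 fold change of only -0.19 (limma adjusted p = 0.317). It was named after its values were seen. In all, 9 of 80 members (11.2%) had groups that did not overlap, 1 higher and 8 lower in mutants, against 12.2% of all tested rows (4.98% higher and 7.26% lower). Besides those described, they were kdm6bb, whose span overlaps tmem88a, and setd1a.

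Acetyltransferases, partner genes of their complexes and bromodomain readers outside the symbol rule had 0 of 33 tested rows higher and 3 lower. These shares were near or below the 5.59% and 8.74% of all tested rows. brd2a, a bromodomain gene, fell to 23.1 ± 4.06 FPKM in mutants, against 49.7 ± 7.41 FPKM in siblings (SD, n = 5 each), by limma a log2 fold change of -1.08 (adjusted p = 0.0010). Its call ended with sibling 2 counted as a mutant (0.0575). trrap, a scaffold of SAGA and the TIP60 complex, and ing5b, a reader of methylated histone, had log2 fold changes of -0.76 and -0.77 (limma adjusted p = 0.0235 and 0.0398). The call of trrap ended without mutant 3 or sibling 4 or 6 (0.0562 to 0.0618) and with sibling 2 counted as a mutant (0.0531). That of ing5b ended in 13 of 21 alternatives, among them leaving out mutant 1, 3, 4 or 6 or sibling 4, 5 or 6 (0.0680 to 0.101).

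Of 19 tested histone demethylase rows 0 passed by limma, against 14.3% of all tested rows. At an unadjusted p under 0.05 there were 7, against 29% of all tested rows. Log2 fold changes of the 19 rows ran from -0.44 to 0.51. The nearest to the threshold from outside was kdm1a (ENSDARG00000060679, chromosome 17, 28067429 to 28085026), with 100, 74.1, 90.9, 75.2 and 66.9 FPKM in mutants, against 59.1, 44.6, 50.9, 61.9 and 68.6 FPKM in siblings. Mutant 6 fell below sibling 6, and the other mutants lay above all siblings. The log2 fold change was 0.51 (SE 0.16, limma adjusted p = 0.0562). It came past the threshold in 5 of 22 alternatives, among them leaving out sibling 6 (0.0473) and median of ratios scaling (0.0250). The row named KDM6B (1 of many), for a demethylase that removes the Polycomb mark, was at 58.5 ± 8.93 FPKM in mutants and 54.5 ± 4.18 FPKM in siblings (SD, n = 5 each; limma adjusted p = 0.708), and copies of similar sequence could share its reads. The row KDM5A was listed at 0 in every library, and both kdm2bb rows did not pass the filter.

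Apart from kmt2e, the KMT2 genes encode large methyltransferases, related to the human leukaemia gene MLL, that mark promoters and enhancers. Of 9 tested rows 1 rose and 0 fell, against 5.59% and 8.74% of all tested rows. kmt2e (ENSDARG00000007523, chromosome 4, 22703476 to 22751678), a divergent family member needed for normal blood formation in mice, had 32.8, 22.2, 26.2, 27.6 and 29.5 FPKM in mutants, against 23.4, 16.2, 17.5, 16.7 and 20.9 FPKM in siblings. Mutant 3 lay below sibling 2, so the groups overlapped. The log2 fold change was 0.53 (SE 0.15), and at an adjusted p of 0.0354 it was the called member nearest to the limma threshold. The call ended without mutant 1, 4, 5 or 6 or sibling 3, 4 or 5 (0.0564 to 0.0843) and with equal library sums outside globin, mitochondrial and rRNA genes (0.0577). kmt2a was at 7.19 ± 1.25 FPKM in mutants and 7.72 ± 1.28 FPKM in siblings (SD, n = 5 each; limma adjusted p = 0.749). kmt2d and kmt2ba have more than 1 row each, so the values of those genes are uncertain. The other 7 rows, of kmt2ba, kmt2bb, kmt2ca, kmt2cb and kmt2d, had log2 fold changes of -0.25 to 0.33. Of 12 tested partner genes of the KMT2 complexes 0 passed by limma, and 2 had an unadjusted p under 0.05. The shares of all tested rows were 14.3% and 29%.

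Among 12 tested SETD genes 0 rose and 1 fell, against 5.59% and 8.74% of all tested rows. The gene that fell was setdb1a, one of a pair of genes for the enzyme that writes the repressive methyl mark of silent chromatin. setdb1a (ENSDARG00000041243, chromosome 19, 9192623 to 9225467) had 3.99, 5.14, 7.32, 6.76 and 6.50 FPKM in mutants, against 7.49, 12.4, 12.2, 10.5 and 15.5 FPKM in siblings. All mutants lay below all siblings, with mutant 4 and sibling 2 close together. Its log2 fold change, -0.85 (SE 0.20, limma adjusted p = 0.0153), was the lowest of the 80 members on the log2(FPKM + 1) scale. By the ratio of mean FPKM chd1l fell farther, at 0.612 FPKM in mutants and 1.61 FPKM in siblings. The call of setdb1a held under all 22 alternatives (0.0054 to 0.0401). The other 11 SETD genes had log2 fold changes of -0.62 for setd8b, a copy of the gene for the enzyme that monomethylates histone H4, to 0.55 for setd4. setd2, which writes a methyl mark behind elongating polymerase, was at 13.5 ± 1.54 FPKM in mutants and 14.9 ± 1.42 FPKM in siblings (SD, n = 5 each). Other histone methyltransferases outside the rule had 1 of 24 tested rows higher and 2 lower, near the 5.59% and 8.74% of all tested rows. prmt6, an arginine methyltransferase gene, rose to 6.95 ± 1.55 FPKM in mutants, against 2.55 ± 0.806 FPKM in siblings (SD, n = 5 each; limma adjusted p = 0.0027). whsc1, a histone lysine methyltransferase gene, fell to 8.91 ± 1.26 FPKM in mutants, against 20.0 ± 4.61 FPKM in siblings (limma adjusted p = 0.0015). carm1, an arginine methyltransferase gene, fell to 5.81 ± 1.34 FPKM in mutants, against 13.1 ± 3.46 FPKM in siblings (limma adjusted p = 0.0086), a call that ended with sibling 2 counted as a mutant (0.197).

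Over all 204 tested companion genes of these families and complexes, 4 rose and 15 fell, against 5.59% and 8.74% of all tested rows. With sibling 2 counted as a mutant 6 passed in place of 19, while the share of all tested rows that passed went from 14.3% to 5.85%. The largest rise among them was that of ruvbl1, an ATPase shared by the INO80, SRCAP and TIP60 complexes, at 34.5 to 59.6 FPKM in mutants and 8.76 to 14.9 FPKM in siblings. Its log2 fold change was 2.04 (SE 0.19, limma adjusted p = 5.31e-05). ruvbl2, of the same list, had a log2 fold change of 0.52 and did not pass (limma adjusted p = 0.0724). dnmt1, which copies DNA methylation after replication, fell to 9.69 ± 2.62 FPKM in mutants, against 28.0 ± 5.91 FPKM in siblings (SD, n = 5 each), by limma a log2 fold change of -1.46 (adjusted p = 7.84e-04). The gene for a de novo DNA methyltransferase, dnmt3ba, was higher, at 14.5 ± 1.39 FPKM in mutants and 9.54 ± 1.62 FPKM in siblings (limma adjusted p = 0.0227), and its call ended without mutant 4 (0.0525) or mutant 6 (0.0530) and with sibling 2 counted as a mutant (0.0740). baz1b and bptf, subunits of ISWI-type remodelers, fell by 0.66 and 0.63 on the log2 scale (limma adjusted p = 0.0043 and 0.0091). The call of baz1b ended with sibling 2 counted as a mutant (0.0823). Of 29 tested rows of ISWI, INO80 and SRCAP partners 1 rose and 3 fell, with atrx (-0.71, limma adjusted p = 0.0292) besides these. Of 13 tested DNA methylation genes 1 rose and 1 fell, against 5.59% and 8.74% of all tested rows. The dnmt3 genes other than dnmt3ba had log2 fold changes of -0.30 to 0.19 and did not pass. Of 27 tested Polycomb rows 0 passed by limma and 5 had an unadjusted p under 0.05. Of 11 tested sirtuin and JmjC rows 0 passed and 2 had an unadjusted p under 0.05. The shares of all tested rows were 14.3% and 29%.

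Markers of proliferation were lower in the same mutant libraries. Of 18 rows for 17 such genes, dnmt1 and chromatin genes not among them, 12 fell and 0 rose by limma. Over all tested rows 8.74% fell and 5.59% rose. The summed level of the proliferation rows was 405 to 701 FPKM in mutants and 796 to 1240 FPKM in siblings. Of 19 tested myeloid rows 11 fell and 0 rose, against 8.74% and 5.59% of all tested rows. Of 23 tested epidermal genes 0 passed and 5 had an unadjusted p under 0.05, against 14.3% and 29% of all tested rows. Only 4 of the 23 had a log2 fold change below 0, against 55.5% of all tested rows. Their median was 0.21, against -0.06. The sum of the 14 erythroid genes was 2560 to 8890 FPKM in mutants and 5170 to 22800 FPKM in siblings. Of the tested endothelial (18), thrombocyte (5), muscle (8) and neural (12) genes, 4, 1, 2 and 1 fell and 0 rose. Set against the 8.74% of all tested rows that fell, the neural count was near that share. The endothelial genes that fell were stab1, stab2, mrc1a and lyve1b. No other endothelial gene passed. The log2 fold changes of the rest ran from -0.55 for flt4 to 0.33 for clec14a, with -0.22 for kdrl, -0.21 for cdh5 and 0.13 for fli1a. Of all 18 endothelial genes 15 had a log2 fold change below 0, against 55.5% of all tested rows. The endothelial sum was 176 to 242 FPKM in mutants and 182 to 338 FPKM in siblings. The part of these markers in the falls of setdb1a, smarcad1a, chd4b and chd1l was not tested. Fewer cells of a type and less RNA per cell cannot be told apart in these bulk samples.

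Zebrafish keep many gene pairs from a genome duplication in fish, often with symbols that end in a and b, and the ratio of a pair within a library asks whether its genes differ in the same way. The log2 ratio of FPKM + 1, a over b, was compared between groups with limma over all 1061 such pairs with both genes tested, of which 14 were pairs of members. kat6a and kat6b, which mammals keep as separate genes too, count as a pair here. The ratio differed for 2 of the 14 member pairs, against 15.6% of all pairs, so again the share was near that of the whole table.

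The genes of the kdm5b pair, which encode a demethylase that erases the trimethyl mark of active promoters, differed in opposite directions. kdm5ba (ENSDARG00000057093) had 11.5, 6.85, 8.54, 9.43 and 9.61 FPKM in mutants, against 5.51, 6.25, 6.32, 7.73 and 8.14 FPKM in siblings. kdm5bb (ENSDARG00000003098) had 14.9, 13.3, 13.6, 11.8 and 14.0 FPKM in mutants, against 18.0, 14.2, 19.7, 19.7 and 22.5 FPKM in siblings. Each gene alone overlapped between groups and missed the threshold, at log2 fold changes of 0.38 and -0.44 (limma adjusted p = 0.132 and 0.0571). In the 22 alternatives kdm5ba passed in 0 and kdm5bb in 4, among them leaving out sibling 3 (0.0272) and array weights (0.0377). Their log2 ratio was -0.52 ± 0.23 in mutants and -1.34 ± 0.19 in siblings (SD, n = 5 each), with every mutant above every sibling. The difference of 0.82 (SE 0.18) passed (limma adjusted p = 0.0069 over all pairs), and it ended in 1 of 22 alternatives, with sibling 2 counted as a mutant (0.158). The summed level of both genes was 22.7 ± 2.42 FPKM in mutants and 25.6 ± 3.85 FPKM in siblings. The span of kdm5ba overlaps an unnamed gene, so part of its reads may belong there.

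The setdb1 pair was the second whose ratio differed. setdb1b, the more abundant copy, had 28.5, 20.4, 31.0, 25.8 and 32.5 FPKM in mutants, against 31.7, 28.1, 28.8, 29.2 and 34.9 FPKM in siblings (log2 fold change -0.15, SE 0.15, limma adjusted p = 0.540). The log2 ratio of setdb1a to setdb1b was -2.05 ± 0.32 in mutants and -1.35 ± 0.35 in siblings (SD, n = 5 each), and sibling 2, at -1.95, lay among the mutants. The difference was -0.70 (SE 0.21, limma adjusted p = 0.0406 over all pairs). The call ended in 11 of 22 alternatives, among them leaving out mutant 1, 4 or 6 or sibling 3, 4, 5 or 6 (0.0600 to 0.0911).

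Other pairs gave no ratio past the threshold. For chd4, where both genes were lower in mutants by the mean, the ratio difference was 0.19 (SE 0.16, limma adjusted p = 0.464). The ratios of smarcc1a to smarcc1b and of kdm2aa to kdm2ab were higher in every mutant than in every sibling, by 0.48 and 0.42 on the log2 scale, and missed the threshold (limma adjusted p = 0.0901 and 0.0978). The kdm7a pair, at a difference of 0.64 (limma adjusted p = 0.133), passed in 5 of 22 alternatives, among them leaving out sibling 2 (0.0277) or mutant 6 (0.0471). The span of kdm7ab overlaps cyp2x8, so part of its reads may belong there. The kat7 pair passed without mutant 6 (0.0353). In these 14 pairs the levels were often unequal. smarcc1a exceeded smarcc1b in every library, by a log2 ratio of 3.87 to 4.61 in mutants and 3.54 to 3.84 in siblings. The log2 ratio of kat7a to kat7b was -5.30 to -3.70 in mutants and -4.54 to -3.47 in siblings.

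**Figure D5:**
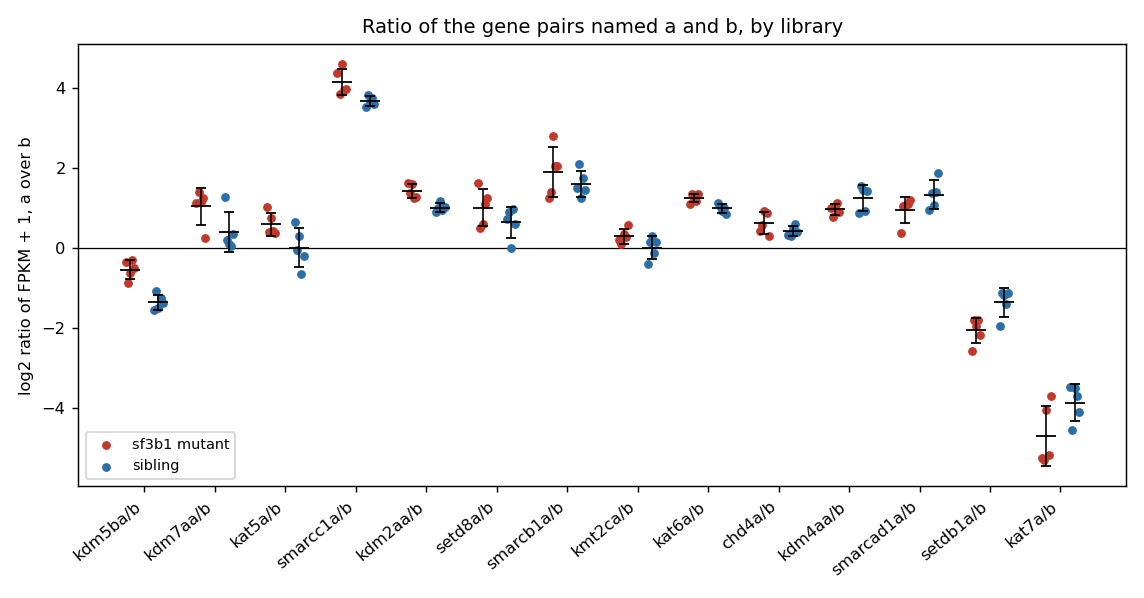
Log2 ratio of FPKM + 1, gene a over gene b, in each library for the 14 member pairs with both genes tested, mutants left of siblings, with the mean and SD (n = 5 each). Pairs run from the largest positive to the largest negative difference, and the kdm5b and setdb1 pairs are those past the threshold.

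The members are spread over the genome. Only 3 lie on chromosome 9 with sf3b1: kdm6a at 1.6 Mb, hdac4 at 13.7 Mb and smarcal1 at 20.5 Mb from it, and none of the 3 passed the threshold (limma adjusted p = 0.479, 0.316 and 0.451). The spans of 22 member rows overlap another row of the table, and smarcd1, smarcad1a, setdb1a, chd4b, chd1l and kmt2e are not among them.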

How the data were processed

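Total RNA of gata1-positive cells was depleted of ribosomal RNA and made into stranded libraries, per the labels' protocols. The submitters' processing notes name build GRCz10 and the tools Cufflinks 2.2.1, STAR 2.4.2a, Trim Galore and Picard. The deposited table, per its file headers, gives FPKM of each gene in each library, and no counts. Starts are printed with 1 base added, after which 37 of 37 mitochondrial genes matched the reference gene table.

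A row was tested where its mean reached 1 FPKM, on log2(FPKM + 1) with limma 3.58.1 (R 4.3.3; eBayes with trend) and Benjamini-Hochberg adjustment, 5 mutants against 5 siblings, and the ratio of a/b pairs likewise. Both steps were run on simulated data with known changes as a check of the code, and the share of such changes found is not given here. Relative depth is the commonest ratio between libraries of values of the same gene among rows with low means. Intervals are 95% confidence intervals of the log2 fold change from limma, based on the spread between libraries within groups. Named members passed the threshold, had the 10 highest sibling means, belonged to a called pair or were listed by name; of companion lists up to 3 called genes were named. Members and lists were chosen with earlier results of these data known. Alternatives changed the pseudocount, filter, scaling, variance model, group of sibling 2, replicate block and libraries. Tables were read with pandas 2.3.3 in Python 3.11.15, and figures made with matplotlib 3.10.9.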

Additional observations from a re-analysis of the deposited data

Results flagged for a closer look

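Dixon's test at the 95% level was applied to each group of 5 libraries for the named members, sf3b1 and the 14 member pairs, 80 groups in all, and 4 of them held a library far from the others; chance gives about 1 in 20. kmt2a in mutants was at 9.35 FPKM in mutant 6, against 6.30 to 7.17 FPKM in the other mutants. The log2 ratio of the kdm7a pair was 0.26 in mutant 6, against 1.14 to 1.42 in the other mutants, and 1.29 in sibling 2, against 0.06 to 0.36 in the other siblings. The log2 ratio of the smarcad1 pair was 0.39 in mutant 1, against 1.06 to 1.20 in the other mutants.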

How the results depend on the processing

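Of the 22 alternatives run, smarcad1a, setdb1a and sf3b1 kept their calls in all, smarcd1 in 21 and chd4b in 20. Members called higher numbered 2, against 4 after quantile normalization (with 4 lower), 1 with equal library sums outside globin, mitochondrial and rRNA genes, and 1 with sibling 2 counted as a mutant. Leaving out each library gave 1 to 3 higher and 3 to 8 lower members, 8 without sibling 3. Of all tested rows 727 were higher and 1137 lower, against 755 lower with a filter at 5 FPKM, and 300 higher and 461 lower with sibling 2 as a mutant; leaving out libraries gave 524 to 735 higher and 741 to 1238 lower. Pairs numbered 166 of all pairs, against 85 with the filter at 5 FPKM and 66 with sibling 2 as a mutant, and 116 to 159 without a library. Member pairs numbered 2, against 1 with log2(FPKM + 5), no filter, quantile normalization or no trend, and 1 to 3 without a library. Companion genes numbered 19, against 6 with sibling 2 as a mutant and 14 to 22 without a library.

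Signs turned for 3 genes that no alternative called. hdac8 was at -0.03 with array weights, -0.09 with the replicate block or without mutant 1 and sibling 2, and between -0.10 and 0.11 (0 without sibling 5) without single libraries. smarcb1b ran from -0.09 (without sibling 3) to 0.21 without single libraries, and was 0 without mutant 1. smarce1 was at 0.01 with median of ratios, 0 with quantile normalization and -0.18 to 0.05 (without mutant 3) without single libraries. The cause was not tested. The replicate numbers do not pair the samples by any label: same-numbered libraries had correlations of deviations of -0.03 to 0.15, and for 2 of 4 the own number was the best match. With the replicate block 2 members were higher and 5 lower, the fifth being smarca4a (adjusted p = 0.0471). Of the named companion genes mta1 and ing5b lost their calls (0.0502 and 0.0906). Mutant 1 and sibling 2 share their replicate number with no library of the other group. In this setting they therefore do not add to the group difference, much as when both are left out. Absolute depth is unknown, so no limit from counting can be given for low members such as chd1l.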

Other observations

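Some chromatin genes varied widely between libraries of the same group. The genes given here are examples chosen after their values were seen. hdac9b, a class IIa deacetylase gene, was at 17.2, 8.84, 5.16, 12.1 and 1.77 FPKM in mutants, against 6.74 to 12.3 FPKM in siblings. kdm6al was at 18.3 FPKM in mutant 6 and 3.90 to 5.70 FPKM in the other mutants, and at 12.5 FPKM in sibling 4 and 4.53 to 6.12 FPKM in the other siblings. Its span overlaps pmepa1. setd5 was at 9.61 to 11.6 FPKM in mutants, against 19.7 FPKM in sibling 2 and 8.18 to 11.4 FPKM in the other siblings.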
